A study of Drosophila melanogaster with 34 samples.

Results

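The 31 cytochrome P450 genes of the CYP4 clan in Drosophila melanogaster were followed in whole females of 6 inbred European strains kept with or without copper. The clan comprises the Cyp4 genes and the smaller Cyp311, Cyp312, Cyp313, Cyp316 and Cyp318 families, and its members were taken by gene symbol from a count table of 16495 genes, which also holds 51 other P450 genes. GIM-012, MUN-008 and MUN-020 are the copper-tolerant strains and AKA-018, COR-018 and JUT-008 the copper-sensitive ones, chosen by the authors from the ends of a survey of survival on copper. Mated females spent 24 h with sucrose solution dried onto paper that held 20 mM CuSO4 (copper) or none (control), and RNA was taken from 20 whole females per library. The sample descriptions give an age of 3 to 7 days and the methods of the study a slightly later lower bound. There were 34 libraries, 3 per strain and treatment except for the controls of AKA-018 and MUN-020 with 2 each, so that each class had 8 control and 9 copper libraries. Each strain is a single inbred line, so a class difference rests on 3 genotypes against 3. In JUT-008 and COR-018 some females died, and the pools of those strains hold living ones alone.

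P450 enzymes are haem proteins that insert an oxygen atom into a substrate with electrons delivered by cytochrome P450 reductase (*Cpr*). CYP4 enzymes are best known for hydroxylating fatty acids at or near the methyl end, which starts the breakdown or signalling of lipids. In the fly the clan has members with very different duties. *Cyp4g1* is the oenocyte enzyme that turns long-chain aldehydes into the hydrocarbons that waterproof the cuticle, *Cyp4g15* is expressed in the nervous system, *Cyp4e3* in the Malpighian tubules has been tied to tolerance of the insecticide permethrin, *Cyp311a1* acts in midgut lipid metabolism, and *Cyp4d21*, also known as *sxe1*, is regulated by sex in the head. Many other members have no assigned substrate.

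The libraries held 22796637 to 42567920 counted reads. Levels are given as CPM after TMM scaling, that is, reads scaled to a common library size that edgeR adjusts for composition. In 9 of the 17 sensitive libraries 5 marker genes of the male accessory gland summed to over 1 CPM (6.47 to 60.9 CPM), whereas in all other libraries the sum was at most 0.131 CPM. These were both AKA-018 controls, 1 control and 2 copper libraries of COR-018, and 2 control and 2 copper libraries of JUT-008. The class comparisons and the COR-018 and JUT-008 responses are given with and without them. AKA-018 keeps no control without them, so its response has no such version, and the tests over all 6 strains were not run without them. In GIM-012 the sum of 4 ovarian germline markers was 1878 to 2773 CPM in control and 920 to 1262 CPM in copper libraries. The 10 midgut markers summed to 2193 to 4244 CPM in control and 1154 to 1531 CPM in copper libraries of COR-018, and the 7 fat body markers to 11063 to 19599 and 6547 to 8911 CPM. In whole-body RNA, fewer cells of a type and less RNA per cell cannot be told apart.

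*Cyp4g1* dominated the clan in every group. Its mean control level over the 6 strains was 2683 CPM per kb of exon, against 71.3 for *Cyp4e2*, which came second, and it took 89.2% to 94.6% of all CYP4-clan reads in the 12 combinations of strain and treatment. The next members were *Cyp4p1* at 15.6, *Cyp4ac1* at 14.8 and *Cyp313a1* at 14.0 CPM per kb, and the lower end was formed by *Cyp313a3* at 1.24, *Cyp4c3* at 0.675, *Cyp316a1* at 0.153 and *Cyp313a2* at 0.0438 CPM per kb. *Cyp313a2* never had more than 9 counts in a library and was not tested, so 30 of the 31 members entered each comparison.

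**Figure D1:**
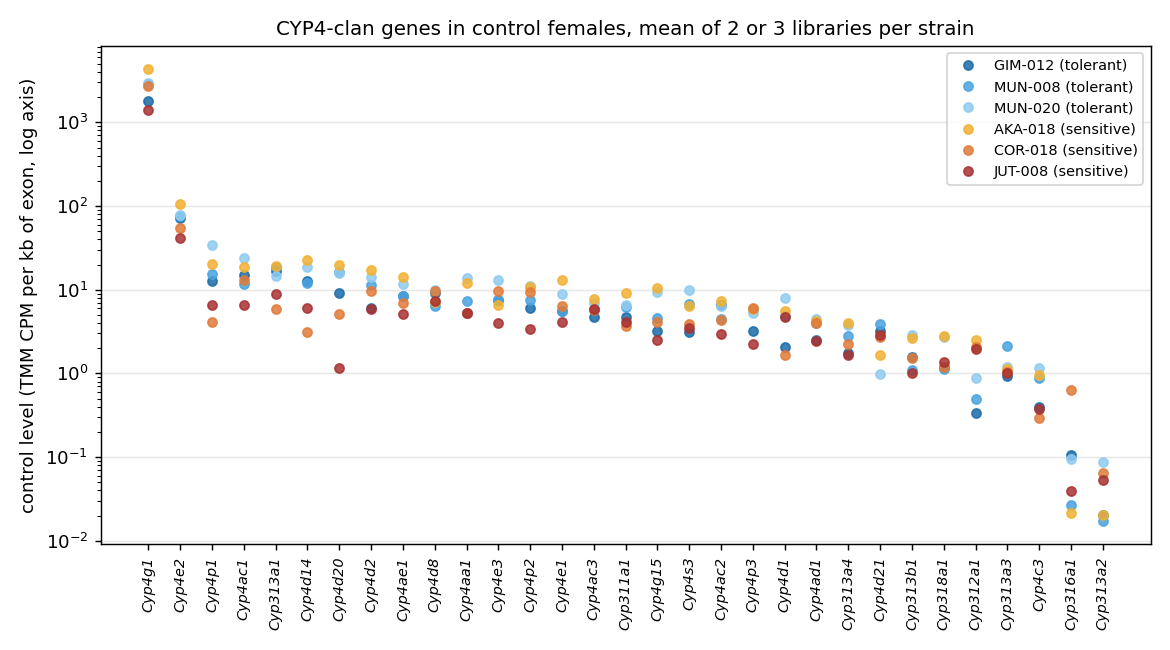
Control level of each of the 31 genes in the 6 strains, as the mean of 2 or 3 libraries in TMM CPM per kb of exon on a log axis, with genes ordered by their mean level. *Cyp4g1* lies far above all others in every strain, between 1405 and 4390 CPM per kb.

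Control levels differed among strains for every tested member. In an F test over the 6 strains (quasi-likelihood fit of edgeR, p adjusted by Benjamini-Hochberg over all genes tested, threshold 0.05) 30 of 30 were called, where 83.2% of all genes were. The ratio of the highest to the lowest strain had a median of 3.14 over the 30 genes and exceeded 2 in 27 of them. JUT-008 had the lowest mean of the 6 strains for 15 of the 30 genes, and AKA-018 the highest for 15. Over all 12511 genes tested JUT-008 was lowest for 27.2% and AKA-018 highest for 25.7%. *Cyp4d20* spanned 1.176 CPM per kb in JUT-008 to 19.98 in AKA-018, a 16.99-fold range, and *Cyp4p1* 4.06 in COR-018 to 34.5 in MUN-020, an 8.49-fold range. *Cyp4d14* ranged from 3.10 CPM per kb in COR-018 to 22.9 in AKA-018. *Cyp4d8* and *Cyp4ac3* were the most even, with ratios of 1.52 and 1.62.

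Several members lie next to each other, and positions are those of dm6. On chromosome 2L *Cyp4ac1* (5264001 to 5265899), *Cyp4ac2* (5266392 to 5268455) and *Cyp4ac3* (5268498 to 5270329) follow each other on the forward strand, opposite the gene *tkv*, the first pair 493 bases apart and the second 43. On 2R *Cyp4ad1*, *Cyp4e2* and *Cyp4e1* lie between 8439395 and 8449745, and *Cyp4p2*, *Cyp4p1* and *Cyp4p3* between 9237512 and 9244410 within the span of *hig* on the other strand. On X *Cyp4d1*, *Cyp4d14*, *Cyp4d2* and *Cyp4ae1* lie between 2159145 and 2180998, and *Cyp311a1* and *Cyp318a1* are 1167 bases apart. On 3L *Cyp4d8* and *Cyp316a1* are 73 bases apart on opposite strands. Reads were counted by strand and reads with more than 1 place in the genome were discarded, so antisense transcripts do not add to these counts, while stretches identical between neighbours are not counted for either.

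In the tolerant strains copper raised 2 of the 30 genes, *Cyp4e3* and *Cyp4s3*, and lowered none. A gene was called at an adjusted p below 0.05 with a fold change over 1.5. Over all genes 1.02% rose and 0.509% fell by this rule. No member was lower at an unadjusted p below 0.05 either, and DESeq2 gave the same counts of 2 and 0. The median log2 fold change of the 30 members was 0.15, against -0.0037 over all genes, and 27 of the 30 values were above 0.

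*Cyp4e3* (FBgn0015035, 2L, 9747839 to 9750071) had the largest fold change of the 30 tested members in the tolerant class. In GIM-012 it read 12.0, 13.7 and 15.2 CPM in the controls and 51.7, 42.1 and 87.4 CPM on copper. In MUN-008 the controls read 10.03, 11.04 and 20.09 CPM and the copper libraries 48.9, 33.7 and 33.1 CPM, and in MUN-020 27.0 and 20.3 against 70.2, 144.2 and 119.3 CPM. All copper libraries of each tolerant strain lay above all controls of that strain. The fitted increase was 3.81-fold, a log2 fold change of 1.93 ± 0.20 (SE, adjusted p = 2.4e-05, edgeR). It stayed between 1.80 and 2.18 with its call in all 29 alternatives tried.

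*Cyp4s3*, an X-linked member whose substrate is not assigned, rose 1.56-fold in the tolerant strains (log2 0.64 ± 0.12, adjusted p = 0.00631, edgeR). In GIM-012 it went from 6.22, 8.24 and 6.77 CPM to 12.36, 16.07 and 17.99 CPM, and in MUN-008 from 14.2, 17.1 and 15.1 CPM to 24.5, 21.7 and 22.3 CPM. In MUN-020 the controls at 23.7 and 21.1 CPM overlapped the copper libraries at 23.3, 24.3 and 29.5 CPM. Its call was lost without GIM-012 or without MUN-008, and without control replicate 1 or copper replicate 4 of GIM-012. *Cyp4e2*, the second most abundant member, passed the p threshold in both classes but not the fold threshold, at log2 0.34 ± 0.07 in tolerant (adjusted p = 0.0155) and 0.28 ± 0.08 in sensitive strains (adjusted p = 0.0175).

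**Figure D2:**
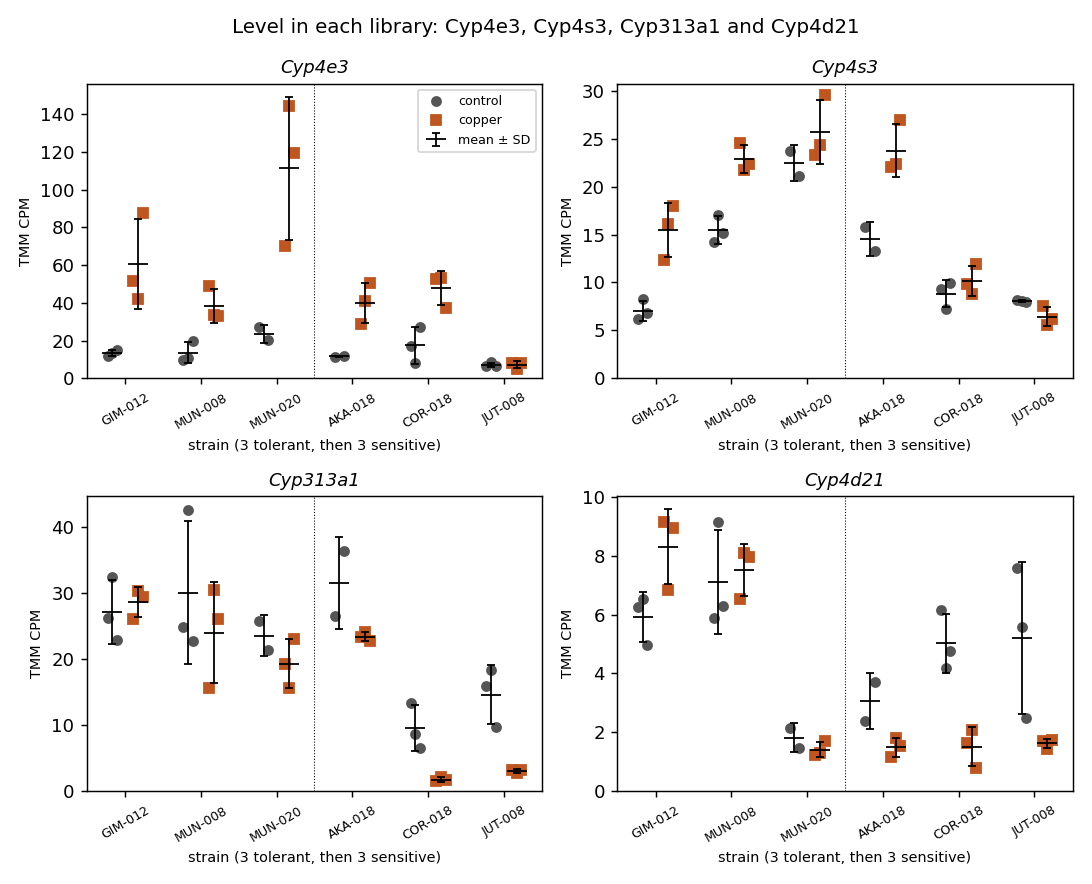
Level of *Cyp4e3*, *Cyp4s3*, *Cyp313a1* and *Cyp4d21* in every library (TMM CPM, linear axes from 0), with control libraries as grey circles, copper libraries as orange squares and bars for mean ± SD. *Cyp4e3* on copper is above control in every strain but JUT-008, where copper libraries lie at 5.07 to 8.35 CPM, and *Cyp313a1* on copper falls to at most 3.26 CPM in COR-018 and JUT-008.

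In the sensitive strains copper changed 11 of 30 members. Of these 2 rose, *Cyp4e3* and *Cyp4ac3*, and 9 fell, namely *Cyp313a1*, *Cyp4d21*, *Cyp4ac2*, *Cyp4ad1*, *Cyp4ac1*, *Cyp318a1*, *Cyp4d1*, *Cyp311a1* and *Cyp313b1*. Over all genes 1.81% rose and 5.94% fell in these strains. The median log2 fold change of the members was -0.34, against -0.019 over all genes. Of the other P450 genes 4 rose and 3 fell, of 50 tested.

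Marker genes of some tissues moved in the same comparison. Of 4 ovarian germline and 5 photoreceptor markers edgeR called 0, with 2 of each at an unadjusted p below 0.05 and medians of 0.07 and -0.19. Among the 10 midgut markers 6 fell with a median of -0.97, among the 7 fat body markers 4 fell with a median of -0.68, and among the 4 haemocyte markers 2 fell. Of 7 Malpighian tubule markers, the tissue of *Cyp4e3*, 1 fell with a median of -0.26. Of 4 oenocyte markers, which include *Cyp4g1*, edgeR called 0, with 3 at an unadjusted p below 0.05 and a median of -0.37. Their part in the P450 values was not tested. Without the 9 libraries that hold male transcripts 2 of the 11 calls were made, for *Cyp313a1* (log2 -2.32, adjusted p = 0.00701, edgeR) and *Cyp4ac3* (log2 1.08, adjusted p = 0.0232), and the other 9 kept their sign at adjusted p of 0.0713 or more. Over all genes 497 were called in that fit, against 954 with all sensitive libraries. It holds 8 of the 17 sensitive libraries and no AKA-018 control, so its copper effect rests on COR-018 and JUT-008 alone.

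*Cyp313a1* fell furthest, to 0.286 of the control level (log2 -1.81 ± 0.28, adjusted p = 3.2e-04, edgeR). In COR-018 it read 13.4, 8.60 and 6.58 CPM in the controls and 1.52, 2.12 and 1.65 CPM on copper. In JUT-008 it read 15.9, 18.3 and 9.68 CPM in the controls and 3.26, 2.73 and 3.21 CPM on copper. In AKA-018 the change was smaller, from 26.5 and 36.4 CPM to 23.3, 24.1 and 22.8 CPM. All copper libraries lay below all controls within each of these 3 strains, and the call held in all 30 alternatives. In the tolerant strains control and copper libraries overlapped, at 22.9 to 32.4 and 26.1 to 30.4 CPM in GIM-012, 22.8 to 42.6 and 15.6 to 30.4 CPM in MUN-008, and 21.3 to 25.7 and 15.6 to 23.0 CPM in MUN-020. The gene lies on 3R from 14521049 to 14523064.

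*Cyp4d21* fell to 0.349 of the control level (log2 -1.52 ± 0.24, adjusted p = 3.9e-04, edgeR). The COR-018 controls read 6.14, 4.19 and 4.75 CPM and the copper libraries 1.65, 2.09 and 0.787 CPM. The JUT-008 controls read 7.58, 5.58 and 2.47 CPM and the copper libraries 1.69, 1.43 and 1.74 CPM. AKA-018 went from 2.39 and 3.73 CPM to 1.15, 1.80 and 1.53 CPM. The groups did not overlap in any sensitive strain. The highest JUT-008 control was a library with male transcripts, as were both AKA-018 controls, and the 2 COR-018 controls without them, at 6.14 and 4.19 CPM, were above all 3 copper libraries. The JUT-008 control without them read 2.47 CPM. Leaving out these libraries moved the log2 fold change in JUT-008 from -1.68 to -0.75 (adjusted p = 0.765, edgeR), and the class value of -1.85 was no longer called (adjusted p = 0.0713).

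The Cyp4ac tandem split in its response. In the sensitive class *Cyp4ac1* fell to 0.589 (log2 -0.76 ± 0.17, adjusted p = 0.0048, edgeR) and *Cyp4ac2* to 0.445 of control (log2 -1.17 ± 0.26, adjusted p = 0.00544), while *Cyp4ac3* rose 1.69-fold (log2 0.76 ± 0.15, adjusted p = 0.0018). The contrast was sharpest in COR-018. There *Cyp4ac2* went from 9.94, 6.21 and 6.35 CPM to 1.99, 1.21 and 1.33 CPM, and *Cyp4ac1* from 27.2, 15.4 and 22.8 CPM to 8.07, 7.87 and 8.44 CPM. *Cyp4ac3* in the same libraries went from 8.15, 7.45 and 11.6 CPM to 19.5, 19.4 and 19.9 CPM. None of these 3 pairs of groups overlapped.

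Per kb of exon, *Cyp4ac3* read 0.873 to 1.95 times *Cyp4ac2* in the COR-018 controls and 10.4 to 17.1 times on copper. In JUT-008 the ratio was 1.83 to 2.24 in the controls and 4.92 to 8.91 on copper. In the joint fit JUT-008 also had opposite calls for *Cyp4ac2* (log2 -0.74 ± 0.20, adjusted p = 0.0183, edgeR) and *Cyp4ac3* (log2 0.94 ± 0.17, adjusted p = 2.7e-04). The JUT-008 call of *Cyp4ac2* was lost with the strain fitted alone, without control replicate 1, control replicate 2 or copper replicate 3, and without the libraries with male transcripts (log2 -0.41), which also ended that of *Cyp4ac3*. In GIM-012 the ratio was 0.651 to 0.772 in control and 0.768 to 1.11 on copper, and there *Cyp4ac1* and *Cyp4ac3* both rose. The sensitive-class calls of *Cyp4ac1* and *Cyp4ac2* were lost without COR-018 (log2 -0.39 and -0.54), and that of *Cyp4ac3* without COR-018 or without JUT-008.

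**Figure D3:**
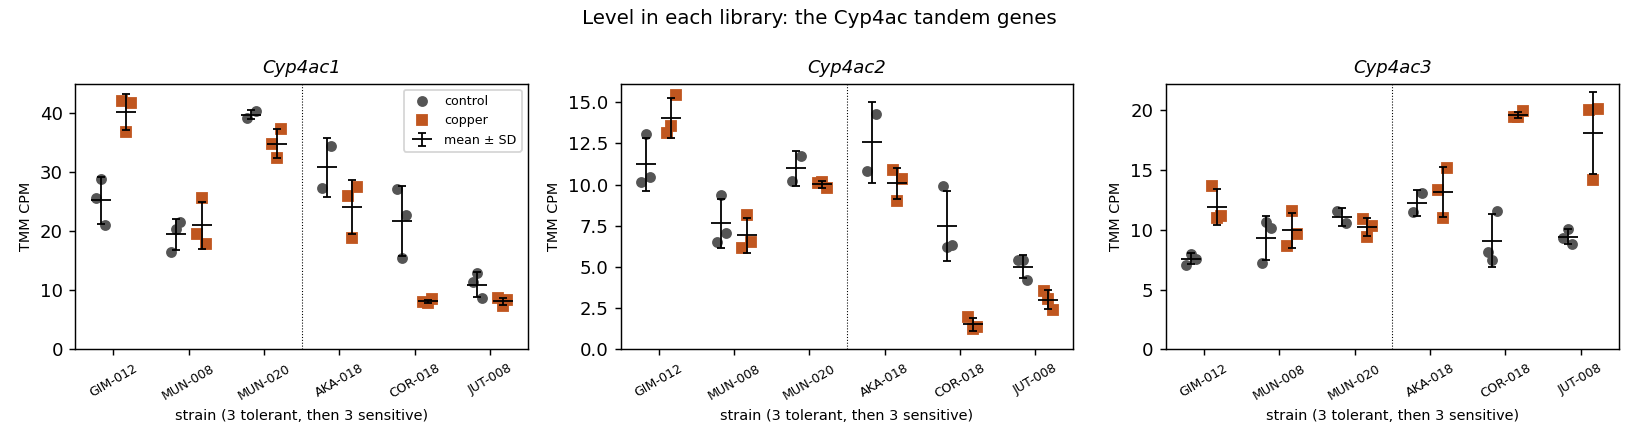
Level of the 3 neighbouring Cyp4ac genes in every library (TMM CPM, linear axes from 0), with control libraries as grey circles, copper libraries as orange squares and bars for mean ± SD. In COR-018 copper libraries *Cyp4ac1* and *Cyp4ac2* are below all controls and *Cyp4ac3*, at 19.4 to 19.9 CPM, above them.

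The remaining decreases in the sensitive class were smaller. *Cyp4ad1*, next to the Cyp4e genes, fell to 0.471 of control (log2 -1.09 ± 0.26, adjusted p = 0.00677, edgeR), most in COR-018, from 4.84, 6.53 and 11.3 CPM to 1.52, 1.92 and 1.94 CPM, and its call was lost without COR-018 (log2 -0.54). *Cyp4d1* fell to 0.627, although in COR-018 only control replicate 4, at 6.75 CPM, stood above the range of 2.16 to 2.48 CPM of the other libraries, and without that library its call was lost. No other COR-018 control held male transcripts, while copper replicates 1 and 3 of COR-018, in the low range, held them too. Without all libraries that hold male transcripts the class log2 fold change of *Cyp4d1* was -0.32, against -0.67 with them. The neighbours *Cyp311a1* (log2 -0.64 ± 0.12, adjusted p = 0.00162) and *Cyp318a1* (log2 -0.68 ± 0.22, adjusted p = 0.0342) fell to 0.644 and 0.624 of control. Without JUT-008 the calls of *Cyp4d1* (log2 -0.54) and *Cyp311a1* (log2 -0.44) were lost, and that of *Cyp311a1* also without control replicate 2 of JUT-008. *Cyp313b1* fell to 0.658 (log2 -0.60 ± 0.14, adjusted p = 0.00579). The decreases of *Cyp318a1* and *Cyp313b1* lay near the fold threshold, and their calls held in 14 and 16 of 30 alternatives.

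*Cyp4e3* rose in the sensitive class too, by 2.07-fold (log2 1.05 ± 0.28, adjusted p = 0.0147, edgeR). AKA-018 went from 11.6 and 12.1 CPM to 28.7, 40.8 and 50.3 CPM, and COR-018 from 17.4, 8.01 and 27.4 CPM to 52.8, 53.2 and 37.4 CPM. JUT-008 stayed at 6.580, 8.507 and 6.544 CPM in control and 8.35, 5.07 and 8.23 CPM on copper, with overlapping groups. The class call was lost without AKA-018 and without COR-018.

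The responses of the classes were compared directly by the interaction of class and treatment, at an adjusted p below 0.05 with no fold threshold. It was called for 11 of 30 members, all with a higher value in the tolerant strains, where 3.41% of all genes were called in that direction. In the opposite direction 0.719% of all genes and no member were called. There 2 members had an unadjusted p below 0.05, and DESeq2 called 2. The largest differences were in *Cyp4d21* (log2 1.64 ± 0.28, adjusted p = 0.00183, edgeR), *Cyp313a1* (1.61 ± 0.32, adjusted p = 0.00544), *Cyp4ad1* (1.24 ± 0.29, adjusted p = 0.013) and *Cyp4ac2* (1.19 ± 0.28, adjusted p = 0.0149). *Cyp4ac1* (0.99 ± 0.21), *Cyp318a1* (0.96 ± 0.24), *Cyp4d1* (0.93 ± 0.26) and *Cyp311a1* (0.70 ± 0.18) followed. The lowest called values were those of *Cyp313b1* (0.65 ± 0.19), *Cyp4ae1* (0.65 ± 0.15) and *Cyp4d8* (0.60 ± 0.15), of which *Cyp4ae1* and *Cyp4d8* were called in neither class alone. One other P450 gene of 50 was called.

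This class difference depended on particular strains, in the members and over all genes. Without GIM-012 edgeR called 0 of 30 members, with 13 at an unadjusted p below 0.05, and without COR-018 it called 1. Over all genes it called 41 and 22 in these fits, against 517 with all strains. With counts summed per strain and treatment, so that strains are the replicates, edgeR called 0 members and 0 of all genes. Of the members 6 had an unadjusted p below 0.05 there. Without the libraries that hold male transcripts 4 of the 11 calls were made, and 105 of all genes were called. The mean log2 fold changes of single strains were higher in all 3 tolerant than in all 3 sensitive strains for 10 of 30 members (33.3%), against 6.7% of all genes. These were the called members other than *Cyp4d8*. For each the exact two-sided permutation test over the 6 strains gave p = 0.1, the smallest that 3 against 3 strains allow, and 0.3 after adjustment over the 30 genes. Any gene with this order of strains has p = 0.1 in that permutation test, so it adds nothing to the order. *Cyp4e3*, whose mean log2 fold change was 1.96 in the tolerant and 1.07 in the sensitive strains, had p = 0.2 in the same exact permutation test.

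**Figure D4:**
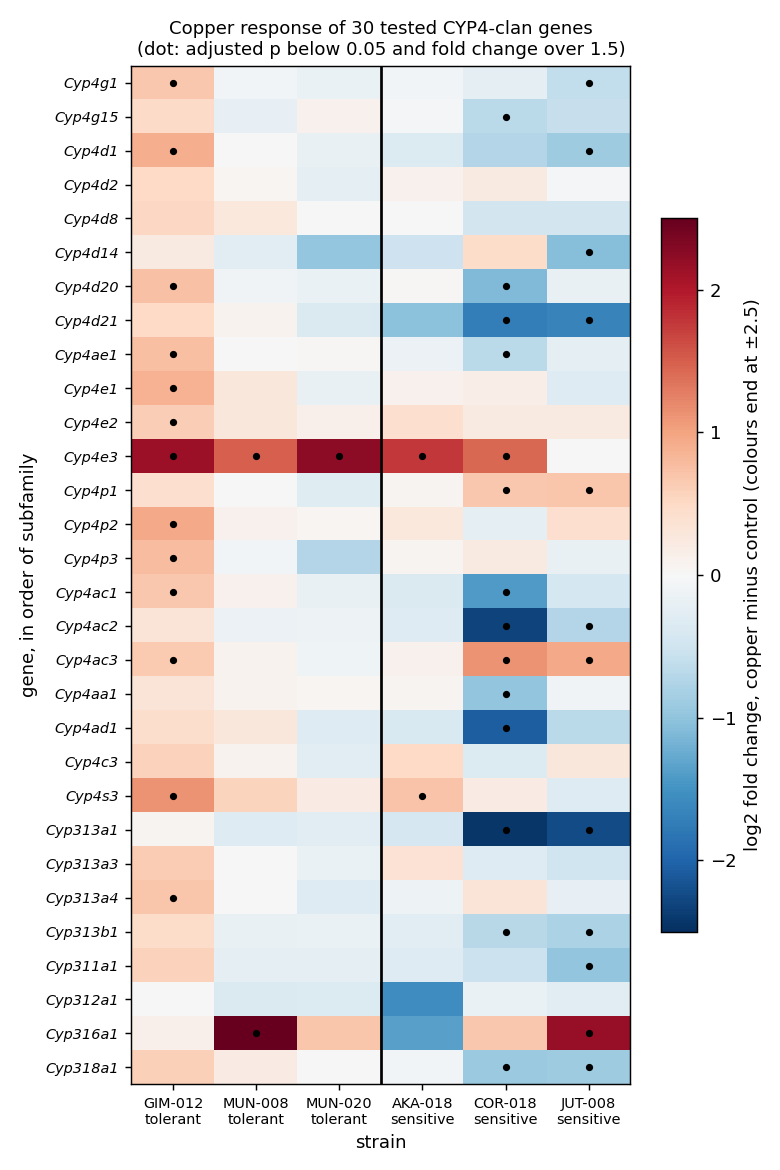
Fitted log2 fold change, copper minus control, of the 30 tested genes (rows, by subfamily) in the 6 strains (columns), with a dot where the gene was called in that strain. *Cyp4e3* carries a dot in 5 strains, GIM-012 has 13 dots, all for increases, and COR-018 and JUT-008 have 11 and 9 dots for decreases.

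The copper response differed among strains for most members. An F test of strain differences in this response, over the strains of both classes together, called 22 of 30 members. It called 30.1% of all genes and 22 of 50 other P450 genes. A difference between the classes also counts in this test, and strain differences within a class were not tested separately. *Cyp4ac2* (adjusted p = 7.6e-06, edgeR), *Cyp313a1* (6.5e-05) and *Cyp4ac1* (7.2e-05) had the lowest values. Fitted log2 fold changes in single strains spanned -2.31 to 0.32 for *Cyp4ac2*, -2.43 to 0.07 for *Cyp313a1* and -1.42 to 0.67 for *Cyp4ac1*. The 8 members not called in this test were *Cyp4g15*, *Cyp4d2*, *Cyp4e2*, *Cyp4p3*, *Cyp4c3*, *Cyp313a3*, *Cyp313a4* and *Cyp312a1*, at adjusted p of 0.0582 to 0.696.

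A few members were called for copper neither in a class nor in a single strain. *Cyp4d2*, *Cyp4d8*, *Cyp4c3* and *Cyp313a3*, together with *Cyp312a1*, made up this group of 5. The single-strain log2 fold changes of *Cyp4d2* lay between -0.23 and 0.51, those of *Cyp4c3* between -0.34 and 0.58, and those of *Cyp313a3* between -0.51 and 0.63. *Cyp312a1* was below 0 in all 6 strains, from -1.55 to -0.0083, with a standard error of 0.64 in AKA-018, where both controls held male transcripts.

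Among the single strains, GIM-012 had the most increases called. There 13 of 30 members rose and 0 fell, with no lower value at an unadjusted p below 0.05 and 0 by DESeq2. Of all genes 9.26% rose and 3.15% fell in that strain. After *Cyp4e3* (log2 2.15) and *Cyp4s3* (1.13) the increases were moderate, in *Cyp4p2* (0.95), *Cyp4d1* (0.91), *Cyp4e1* (0.86), *Cyp4p3* (0.78), *Cyp4ae1* (0.76), *Cyp4d20* (0.72), *Cyp313a4* (0.69), *Cyp4ac1* (0.67), *Cyp4g1* (0.67), *Cyp4ac3* (0.66) and *Cyp4e2* (0.62). Of the other P450 genes 25 of 50 rose. *Cyp4g1* itself went from 4085, 4947 and 3115 CPM to 5631, 6899 and 6813 CPM. The median log2 fold change of all genes in GIM-012 was 0.12, and 3 of 4 ovarian germline markers fell. Other lists rose in the same libraries, with 3 of 4 oenocyte markers (*Cyp4g1* among the 4), 3 of 5 photoreceptor, 4 of 10 midgut, 2 of 7 fat body and 2 of 4 haemocyte markers, and 4 of 9 hydrocarbon genes called higher. Of 7 Malpighian tubule markers edgeR called 0, with 4 at an unadjusted p below 0.05 and a median of 0.35. The part of these shifts in the increases was not tested. With library size alone in place of TMM, 6 of the 13 increases were called, and without control replicate 4 likewise 6.

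In MUN-008, MUN-020 and AKA-018 few members were called. In MUN-008 *Cyp4e3* (log2 1.50 ± 0.36, adjusted p = 0.0227, edgeR) and *Cyp316a1* rose, against 0.52% of all genes. In MUN-020 only *Cyp4e3* rose (log2 2.23 ± 0.41, adjusted p = 0.00569), against 0.16%. In AKA-018, the sensitive strain with the highest control levels, *Cyp4e3* (log2 1.76 ± 0.41, adjusted p = 0.0202) and *Cyp4s3* (log2 0.71 ± 0.17, adjusted p = 0.0233) rose, against 0.44%, with both controls among the libraries with male transcripts. No member was called lower in these 3 strains, where 0.863%, 0.583% and 0.991% of all genes were. By edgeR 0, 2 and 3 members were lower at an unadjusted p below 0.05, and DESeq2 called 0, 1 and 0 lower. With the strain fitted alone, edgeR called 2 members lower in MUN-020 and 1 in AKA-018. These calls rest on few libraries. The number of members called fell to 0 in MUN-008 without control replicate 1 or copper replicate 1, in MUN-020 without either control, and in AKA-018 without either control or without copper replicate 4. In those fits 2 to 5 members had an unadjusted p below 0.05 by edgeR.

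*Cyp316a1* rests on few reads. In MUN-008 it had 3 counts in all controls together and 27 on copper, a rate ratio of 8.10 (95% exact interval 2.49 to 41.7). In JUT-008 it had 5 and 26 counts, a ratio of 4.89 (1.85 to 16.3). COR-018 had the most, 110 and 173 counts, at a ratio of 1.65 (1.29 to 2.11). These intervals cover counting error only, and the highest level of the gene in any library was 1.62 CPM.

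In the joint fit of the 12 groups with edgeR, COR-018 and JUT-008 held the decreases called in single strains. In COR-018 11 members fell and 3 rose, where 8.55% of all genes fell and 2.27% rose. In JUT-008 9 fell and 3 rose, where 5.18% fell and 1.94% rose. The lists shared 5 decreases, *Cyp313a1*, *Cyp313b1*, *Cyp318a1*, *Cyp4ac2* and *Cyp4d21*, which are 45.5% of those in COR-018 and 55.6% of those in JUT-008. Over all genes 485 decreases were shared, 45.3% and 74.8% of the respective lists. *Cyp4ac3* and *Cyp4p1* rose in both, which is 66.7% of the increases in each strain. Over all genes 125 increases were shared, 44% of those in COR-018 and 51.4% of those in JUT-008. *Cyp4p1* went from 7.29, 6.10 and 7.09 CPM to 11.6, 12.7 and 8.24 CPM in COR-018. JUT-008 went from 11.5, 11.3 and 10.2 CPM to 20.6, 13.3 and 19.6 CPM. All copper libraries lay above all controls of their strain, but the higher copper values came from libraries with male transcripts. The copper libraries without them gave the lowest values, 8.24 CPM (COR-018) and 13.3 CPM (JUT-008). With the male-transcript libraries left out, the log2 fold change of *Cyp4p1* went from 0.67 to 0.29 (COR-018) and from 0.70 to 0.43 (JUT-008). Both remaining values were above 0 and below the fold threshold.

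Other decreases were called in one of these strains. In COR-018 they were *Cyp4ad1* (log2 -2.07 ± 0.26, adjusted p = 1.3e-06, edgeR), *Cyp4ac1* (-1.42 ± 0.18), *Cyp4d20* (-1.09 ± 0.21), *Cyp4aa1* (-0.99 ± 0.17), *Cyp4g15* (-0.67 ± 0.23) and *Cyp4ae1* (-0.66 ± 0.13). In JUT-008 they were *Cyp4d14* (log2 -1.07 ± 0.24, adjusted p = 0.00405), *Cyp311a1* (-0.98 ± 0.17), *Cyp4d1* (-0.88 ± 0.28) and *Cyp4g1* (-0.62 ± 0.16). *Cyp4g1* in JUT-008 went from 3324, 3630 and 2651 CPM to 2322, 1799 and 2108 CPM, with no overlap. Of the 15 genes that fell in COR-018 or JUT-008, 5 rose in GIM-012, namely *Cyp4ac1*, *Cyp4ae1*, *Cyp4d1*, *Cyp4d20* and *Cyp4g1*. That is 33.3% of the decreases, where over all genes 18.5% of 1233 were. Regardless of decreases elsewhere, 43.3% of the tested members and 9.26% of all genes rose in GIM-012. The JUT-008 call of *Cyp4d1* held in 12 of 41 alternatives.

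When the libraries with male transcripts were left out, 9 of the 14 COR-018 calls were made, with 8 decreases, and *Cyp313a1* was at log2 -2.75 and *Cyp4ac2* at -2.61. JUT-008 then had 1 library per treatment, whose spread is taken from the other strains, and edgeR called 0 members there, with 7 at an unadjusted p below 0.05. In the same libraries *Cyp313a1* of JUT-008 read 9.68 CPM in control and 2.73 CPM on copper.

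Between the classes in control conditions a single member was called. *Cyp312a1* was 0.248 as high in tolerant as in sensitive controls (log2 -2.01 ± 0.39, adjusted p = 0.00874, edgeR), where 4.95% of all genes were called lower in tolerant strains. Tolerant controls read 1.04 to 3.27 CPM and sensitive controls 1.35 to 11.8 CPM, which overlap. The level followed the libraries with male transcripts. The 9 such libraries read 4.03 to 11.8 CPM with a median of 8.94, the 8 other sensitive libraries 1.17 to 5.35 CPM with a median of 2.98, and the 17 tolerant libraries 1.04 to 3.27 CPM with a median of 1.31. All 5 accessory gland and all 7 testis markers in the table were called lower in tolerant controls. Without the male-transcript libraries *Cyp312a1* was not called, and *Cyp4d14* (log2 1.90), *Cyp4p1* (2.02) and *Cyp313a1* (1.37) were called higher in tolerant controls. That fit holds no AKA-018 control, and it called 107 of all genes in either direction, against 655 in the full fit. With AKA-018 alone left out, the same 3 genes were called higher (1.59, 1.83 and 1.17), among 7 members higher and 1 lower. Over all genes 1093 were called there. DESeq2 on all controls called *Cyp4p1* higher (log2 1.11, adjusted p = 0.0488), and 803 of all genes in either direction. In all these fits libraries of the same strain count as separate. With control counts summed per strain edgeR called 0 members, with 1 at an unadjusted p below 0.05, and 468 of all genes.

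**Figure D5:**
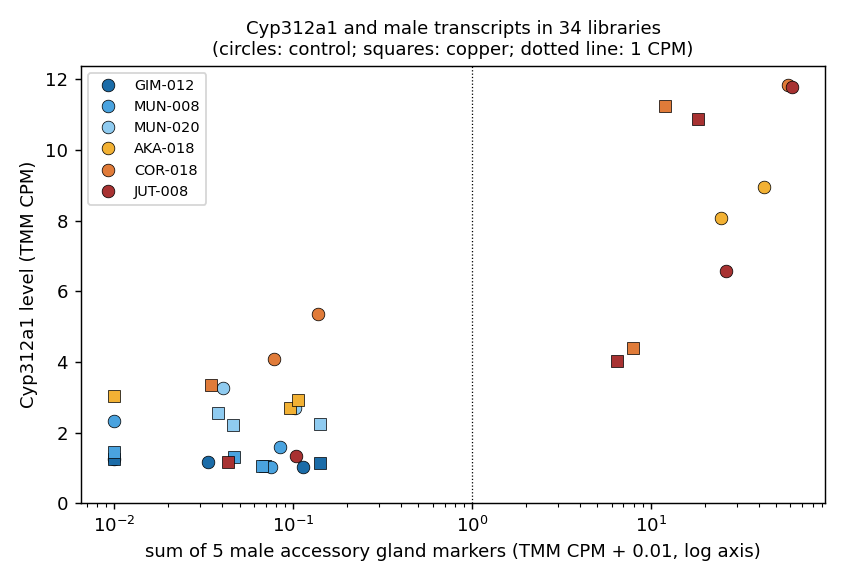
Level of *Cyp312a1* (TMM CPM, linear axis) against the sum of 5 male accessory gland markers (TMM CPM plus 0.01, log axis) in the 34 libraries, coloured by strain, with circles for control and squares for copper. The 9 libraries right of the dotted line at 1 CPM read 4.03 to 11.8 CPM, all others at most 5.35 CPM.

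Most genes listed as partners of CYP4 enzymes were not called. Of the 3 electron transfer genes edgeR called 0 in tolerant and 0 in sensitive strains, with 0 and 1 at an unadjusted p below 0.05. The 1 was *Cpr*, which read log2 0.11 ± 0.07 in tolerant (adjusted p = 0.637) and -0.19 ± 0.05 in sensitive strains (adjusted p = 0.00983, below the fold threshold), and whose interaction of class and treatment was called (0.31 ± 0.09, adjusted p = 0.04). Of 8 regulators of the response to xenobiotics or metals, among them *cnc*, *Keap1*, *Hr96* and *MTF-1*, edgeR called 0 in each class, and 0 passed an unadjusted p of 0.05.

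The cuticular hydrocarbon route ends with *Cyp4g1*. Its 9 other measured genes had median log2 fold changes of -0.0073 in tolerant and -0.29 in sensitive strains. In tolerant strains edgeR called 0 of them, with 3 at an unadjusted p below 0.05. In sensitive strains it called 1, the elongase gene *bond*, which fell (log2 -0.73 ± 0.14, adjusted p = 0.0015), with 8 at an unadjusted p below 0.05. By strain, 1 rose and 1 fell in COR-018, 1 rose and 3 fell in JUT-008, and 0 rose and 1 fell in AKA-018. The sum of the 9 in JUT-008 was 2145 to 2472 CPM in control and 2528 to 2871 CPM on copper. In COR-018 it was 3136 to 4069 and 3890 to 4298 CPM, and in AKA-018 4930 to 5003 and 4358 to 5599 CPM, both with overlap. *Cyp4g1* itself read 0.16 ± 0.13 in tolerant (adjusted p = 0.746) and -0.33 ± 0.10 in sensitive strains (adjusted p = 0.0261, below the fold threshold). Of 6 alcohol and aldehyde dehydrogenase genes, which act on many small alcohols and aldehydes, 3 rose in tolerant and 2 in sensitive strains, and 0 were called for the interaction by edgeR, with 2 at an unadjusted p below 0.05. The polyol dehydrogenase gene *Sodh1* rose by log2 2.08 ± 0.18 and 1.77 ± 0.18 and *Sodh2* by 0.81 ± 0.11 and 0.84 ± 0.11 in tolerant and sensitive strains, and *Adh*, the alcohol dehydrogenase gene, by 0.78 ± 0.13 in tolerant strains (adjusted p = 0.00188, edgeR).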

How the data were processed

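RNA of 34 pools of 20 whole females was sequenced. The deposited raw gene counts were made by the authors from reads checked with FastQC 0.11.8, trimmed with Trim Galore 0.5.0 and cutadapt 1.18, aligned to dm6 with STAR 2.6 and counted by strand with featureCounts 1.6.2, which left out reads with several places in the genome or several genes. The label of the table speaks of a removal of males that the methods do not explain. A total of 0 columns of per-sample values were left unused. Gene names and exon lengths came from an Ensembl annotation of dm6, which matched 16198 of 16495 identifiers.

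Counts were filtered with filterByExpr, scaled by TMM and tested with the quasi-likelihood test of edgeR 4.0.16 (limma 3.58.1, R 4.3.3), with Benjamini-Hochberg adjustment over all genes tested. Copper fits within a class and the interaction held the strain as a term, and control levels between classes were fitted with the class alone, following the study, so that libraries of 1 strain count as separate there. The copper response of single strains came from 1 fit of all libraries with 12 groups. Calls needed an adjusted p below 0.05 and, for contrasts of treatment or of control levels between classes, a fold change over 1.5. The single values over strains were compared by an exact permutation test. The code was tested on simulated data. Total counts of 22796637 to 42567920 per library set the precision, and intervals on low counts cover counting error only. CPM values were computed here from the deposited counts.

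The methods of the study call the libraries of a group biological replicates, and p-values measure the spread between them. Over 32 replicate pairs the chi-square per degree of freedom was 8.70 to 274, so none was counted as a duplicate. The clan members and the gene lists were chosen with earlier results of these data known. Statistics were given for members called in a class, interaction, strain or control comparison, a single-strain value for members called in 1 strain, and ranges or counts for the rest, with other genes named only from the lists. Alternatives were DESeq2 1.42.0, other normalizations, filters and thresholds, a replicate block, and leaving out libraries or strains. Leaving out libraries with male transcripts, scaling by library size alone and a log2 threshold of 1.5 were added after seeing the data. Of the gene lists, 2 hydrocarbon genes, 1 oenocyte, 1 ovarian, 9 accessory gland and 3 testis markers were not analysed here.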

Additional observations from a re-analysis of the deposited data

Results flagged for a closer look

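For 11 of the 30 tested CYP4 genes the copper response differed between the classes by the interaction test of edgeR over all genes. All 11 differences, given as the log2 fold change of tolerant minus that of sensitive strains, were above 0. The value was 1.635 for *Cyp4d21*, 1.608 for *Cyp313a1*, 1.241 for *Cyp4ad1* and 1.185 for *Cyp4ac2*. It was 0.9882 for *Cyp4ac1*, 0.9593 for *Cyp318a1*, 0.9336 for *Cyp4d1* and 0.6981 for *Cyp311a1*, and 0.6539 for *Cyp313b1*, 0.6462 for *Cyp4ae1* and 0.5973 for *Cyp4d8*. For 9 of them the gene was called in the sensitive class alone, and *Cyp4ae1* and *Cyp4d8* were called in neither class. The marker genes of midgut, fat body and haemocytes also had medians above 0 for this difference, at 1.05, 0.95 and 1.10, with 4 of 10, 3 of 7 and 3 of 4 genes called, and their part in the CYP4 values was not tested. The 4 ovarian germline markers had a median of -0.45, with 0 called by edgeR and 2 at an unadjusted p below 0.05.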

How the results depend on the processing

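Of 30 genes, 2 were called in the tolerant strains, 11 in the sensitive strains, 11 for the interaction and 1 between the classes in controls. Without GIM-012 these counts were 1 for tolerant, 0 for the interaction and 0 for controls, and without MUN-008 1 for tolerant and 0 for controls. Without COR-018 they were 5 for sensitive and 1 for the interaction, and without JUT-008 6 and 5. Without AKA-018 they were 18 for the interaction and 8 for controls. Over all genes the interaction was called for 517, and for 41 without GIM-012, 22 without COR-018, 142 without JUT-008 and 1154 without AKA-018. A log2 threshold of 1 gave 1 and 5 calls and one of 1.5 gave 1 and 2 in tolerant and sensitive strains. Without the libraries that hold male transcripts the counts were 2 for sensitive, 4 for the interaction, 3 for controls, 9 for COR-018 and 0 for JUT-008. Counts summed per strain gave 0 for the interaction and 0 for controls. DESeq2 gave 2 for controls and 2 for MUN-020. At least 10 counts in every library left 0 for controls and 1 for MUN-008. With library size alone GIM-012 had 6 calls in place of 13. A strain fitted alone gave 5 in GIM-012, 1 in MUN-008, 3 in MUN-020 and 3 in JUT-008, in place of 13, 2, 1 and 12.

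The methods of the study do not state whether replicate numbers pair the samples, and the main fits did not treat them as pairs. Of 15 pairs of same-numbered control and copper libraries 2 had deviations correlated above 0.1, with a median r of -0.10 (-0.86 to 0.47). With the replicate number as a block the counts were 1 for tolerant, 3 for sensitive, 0 for the interaction and 10 for strain differences (22 without it), and in single strains 0 in MUN-008, 0 in MUN-020, 0 in AKA-018 and 9 in COR-018.

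With 1 library left out the counts were 1 to 2 for tolerant, 8 to 11 for sensitive, 8 to 13 for the interaction, 1 to 2 for controls, 19 to 24 for strain differences and 29 to 30 for control levels among strains. In single strains they were 6 to 15 in GIM-012, 0 to 2 in MUN-008, 0 to 2 in MUN-020, 0 to 2 in AKA-018, 10 to 15 in COR-018 and 7 to 14 in JUT-008. The low values came without control replicate 4 of GIM-012 and copper replicate 2 of JUT-008, and the 2 for controls without control replicate 4 of AKA-018. Over 69 called log2 fold changes of single genes, 1936 of 2107 values with 1 library left out and 439 of 622 under the other alternatives kept their call, and none changed sign. Where edgeR gave a count of 0 above, 6 to 17 genes had an unadjusted p below 0.05 for the interaction, 1 to 5 for controls and 2 to 7 in single strains, and DESeq2 was not run under those alternatives. The causes of these shifts were not tested.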
